A study of Homo sapiens with 20 samples.

Results

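The response of nuclear RNA to Nutlin-3a was examined in cells that also carried a peptide directed against the contact between p53 and Mediator. Of 20 libraries in the series, 10 belong to this comparison: 5 with peptide and Nutlin-3a against 5 with peptide and DMSO, 2 per condition in experiment 1 and 3 per condition in experiment 2. They were chosen by their labels, and libraries with the same experiment and replicate number were taken as 5 pairs. HCT116, the established colorectal carcinoma line used, carries wild-type p53. All cells were electroporated with 10 µM of the bivalent stapled peptide Peg6, recovered with 200 nM peptide in the medium, and stood for 3 hours in 0.1% DMSO alone or with 10 µM Nutlin-3a. The other 10 libraries came from cells electroporated with water and given the same DMSO or Nutlin-3a, and they serve here only to show where the response with peptide differed. Electroporation is common to every group, and no group without it is analysed here.

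p53 is a transcription factor held low in unstressed cells by MDM2, the ubiquitin ligase that binds its activation domain and marks it for degradation. Nutlin-3a occupies the p53 pocket of MDM2, so that p53 accumulates without DNA damage and drives genes of cell cycle arrest, apoptosis, DNA repair and its own feedback, MDM2 among them. Activation domains such as that of p53 contact Mediator, the large complex that carries the signal from bound transcription factors to RNA polymerase II. The comparison asks which part of the Nutlin-3a response is seen while the peptide is present.

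Nuclear RNA was depleted of ribosomal RNA and sequenced with a directional kit. Gene rows of the 10 libraries held 46149313 to 63896604 reads in experiment 1 and 23212657 to 47407746 in experiment 2. Levels are reads scaled to 1e+06 reads of gene rows (RPM), not corrected for gene length. The epithelial marker EPCAM averaged 253 RPM and the leukocyte gene PTPRC 0.0284 RPM. Other markers went the other way: epithelial VIL1 and LGALS4 averaged 0.165 and 0.396 RPM, CD68 of the blood markers 13 RPM and COL1A1 of the fibroblast markers 29.4 RPM. Summed levels of 12 epithelial markers were 2270 to 4430 RPM with DMSO and 2170 to 4340 RPM with Nutlin-3a, those of 8 blood markers 4.17 to 39.8 RPM and 4.21 to 38.3 RPM, those of 8 fibroblast and endothelial markers 13.8 to 54.4 RPM and 12 to 75 RPM with LUM at 0 throughout, and those of 8 neuron and liver markers 7.48 to 12.7 RPM and 7.04 to 13.9 RPM. The experiments differed as libraries: structural RNAs made up 16.97 to 23.78% of an experiment 1 library and 1.793 to 5.064% of an experiment 2 library. This class took in ribosomal rows as well as small RNAs. Among the libraries with water, the second Nutlin-3a replicate of experiment 1 stood apart, with 26.39% of reads in structural rows and a scaling factor of 0.702.

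Reference sequence is shown for 2 of the p53 targets called with peptide in experiment 2: MDM2, whose deposited row in experiment 2 starts at the internal start site, and DDB2, a damage sensor of nucleotide excision repair. Both are read from RefSeq's promoter table (GRCh38.p14). The first is the 250 bases upstream of the internal MDM2 start site (chr12:68808767-68809016, plus strand), and its capitals mark a pair of adjoining 10-base p53 boxes, each with at most 1 mismatch to the consensus and with its central C and G kept. The second is a 30-base stretch at a DDB2 start site of that table, 47214974 (chr11:47214975-47215004, plus strand). Its capitals mark a pair of boxes that match the p53 consensus fully, 6 to 26 bases into a transcript from that site. The deposited DDB2 row does not start there: in both experiments it starts upstream, at 47214942.
MDM2: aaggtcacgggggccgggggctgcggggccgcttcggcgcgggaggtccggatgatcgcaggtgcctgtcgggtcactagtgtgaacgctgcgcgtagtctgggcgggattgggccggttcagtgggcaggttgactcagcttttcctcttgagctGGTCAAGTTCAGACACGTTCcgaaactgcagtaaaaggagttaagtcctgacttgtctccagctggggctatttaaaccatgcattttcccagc
DDB2: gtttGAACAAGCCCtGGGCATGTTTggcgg

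The consensus is its own reverse complement, so a search of 1 strand covers both. Full pairs of boxes with a spacer of up to 13 bases stood in 0.0285% of 35116 promoter windows of 300 bases (250 before to 50 after a start site), and adjoining pairs with at most 1 mismatch per box in 0.157%. Of 107 p53 targets tested that the table holds, 1 had a full pair (DDB2) and 3 had an adjoining pair with mismatches. Targets were counted per gene, with a match in any window of the gene, while the shares above are per window. A gene can have several windows, so the counts and shares are not directly comparable. The windows of PLK3 and SUSD6 held neither. A match is a description of the letters, and no binding was measured here.

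Across both experiments together, no gene passed the test with peptide. With 5 pairs and limma on log2 RPM, 0 of 15958 genes were called at a Benjamini-Hochberg adjusted p under 0.05, which is 0% of those tested; the smallest adjusted p was 0.998. At an unadjusted p under 0.05 there were 239 genes higher and 269 lower with Nutlin-3a, 3.18% of the total. Limma-voom, a related test on the whole reads, called 11 rows, all higher with Nutlin-3a and none of them a p53 target. Without the first replicate of experiment 1, of either condition, 2 genes were called.

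The p53 targets moved little as a group. The list held 147 symbols, of which 144 had a row and 136 were abundant enough to test, averaging 0.5 RPM or more across 20 libraries; 8 lay below it. Of the 136, 79 were above 0 (58.1%, beside 41.6% of all genes tested), and their median log2 change was 0.02, beside -0.02 for all genes. In such bulk libraries fewer responding cells and less RNA per cell cannot be told apart. By pair, the median of the p53 targets was 0.02 and -0.01 in experiment 1 and 0.02, 0.16 and -0.05 in experiment 2. The pair of second replicates of experiment 2 thus held the highest median, and without either of its libraries the median over both experiments was -0.01. In cells with water the pair medians in experiment 1 were 0.51 and 0.54, and those in experiment 2 were 0.20, 0.24 and 0.05, so each pair with peptide lay below its counterpart with water.

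Few p53 targets kept 1 direction through all 5 pairs. With peptide, 4 of 136 (2.94%) were higher with Nutlin-3a in every pair, where the background over all genes was 1.57%, and 1 was lower in every pair, where the background was 3.43%. In cells with water 52 of the same 136 were higher in all 5 pairs, beside 479 of all 15958 genes. The 4 were XPC, the damage sensor of global nucleotide excision repair, TNFRSF10A, a death receptor for the ligand TRAIL, ANKRA2 and FAM212B. XPC had a log2 change of 0.18 ± 0.07 (SE, 5 pairs), TNFRSF10A 0.18 ± 0.07, ANKRA2 0.29 ± 0.09 and FAM212B 0.28 ± 0.13; none passed limma over all genes. NINJ1, a membrane protein, was the 1 gene lower in all pairs. These directions are on scaled values. In unscaled RPM XPC, TNFRSF10A and FAM212B fell in both pairs of experiment 1, and ANKRA2 rose in both. XPC there read 47.4 and 44.9 RPM with DMSO and 44.6 and 44.5 RPM with Nutlin-3a. Some scaled changes were close to 0, at 0.01 for TNFRSF10A in the first pair of experiment 1. FAM212B had 0.01 in replicate 3 of experiment 2.

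The experiments did not respond alike. In experiment 1, 0 of 136 p53 targets were called with peptide, where 0.495% of all genes were called higher and 0.0188% lower. In experiment 2, 4 were called, all higher with Nutlin-3a, where 0.182% of all genes were called higher and 0.0376% lower. The test of the difference between experiments called 332 of 15958 genes (2.08%), 124 higher and 208 lower in experiment 2. Among them were 6 of the 136 p53 targets and 71 of the 316 structural rows tested. Across all genes the log2 changes of the experiments correlated at -0.345 and across the 136 p53 targets at -0.297, as a description over genes, which are not independent. The count depended on scaling: in unscaled RPM the median of all genes was -0.14 in experiment 1 and 0.06 in experiment 2, and 1998 genes were called as different, 1883 higher and 115 lower in experiment 2. The 332 fell to 6 when all 20 libraries gave the estimate of spread and to 28 after the trend of change on gene span was removed. With 1 library left out it was 75 to 80 without a first replicate and 35 without a second replicate of experiment 1, and 64, 1981 to 1993 and 213 to 214 without replicate 1, 2 or 3 of experiment 2.

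**Figure D1:**
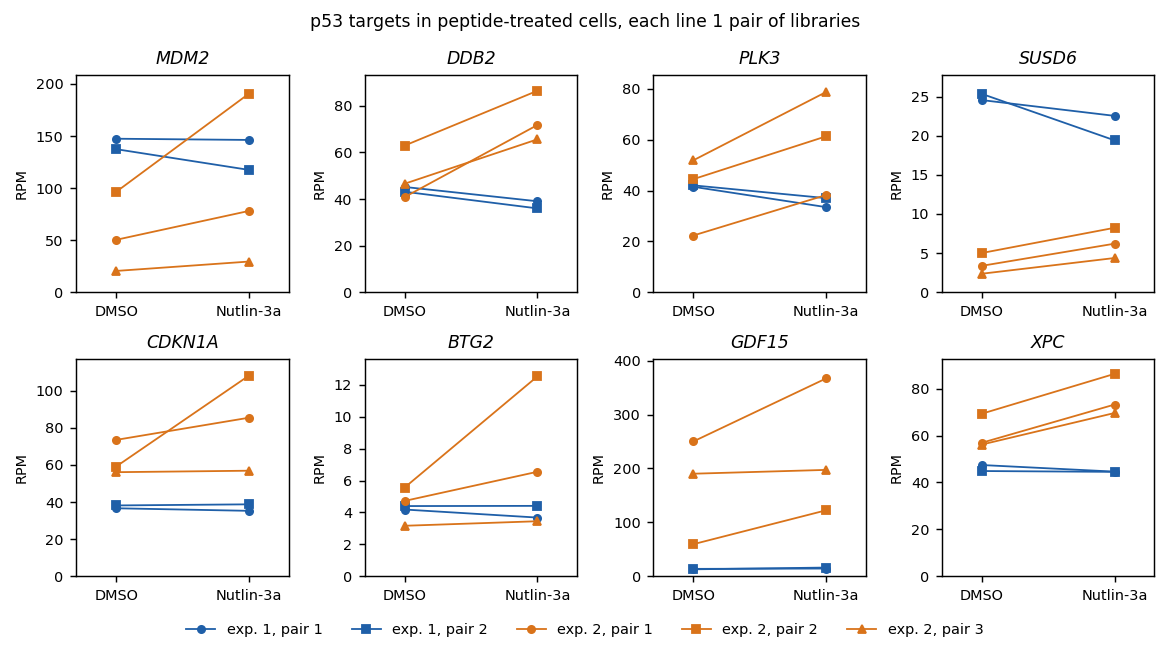
Level in RPM (linear axis from 0, unscaled) of 8 p53 targets in the 10 libraries with peptide, each line joining the DMSO and Nutlin-3a libraries of 1 pair, with experiment 1 in blue and experiment 2 in orange. The 3 lines of experiment 2 rise for MDM2, DDB2, PLK3 and SUSD6, while the 2 lines of experiment 1 are flat or fall for the same genes.

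Among the regulators of p53 itself, MDM2 rose in experiment 2. Its level was 50.3, 96.3 and 20.4 RPM with DMSO and 78.0, 191 and 29.4 RPM with Nutlin-3a in replicates 1 to 3. Each Nutlin-3a library exceeded its DMSO partner, but the conditions overlapped because replicates differed several fold. The log2 change was 0.62 ± 0.09 (SE from a fit of all 5 pairs), 1.54-fold, at an adjusted p of 0.0321 by limma. In experiment 1, MDM2 stood at 147 and 137 RPM with DMSO and at 146 and 117 RPM with Nutlin-3a. The log2 change there was 0.02 ± 0.12 (SE from the same fit). The difference between experiments was 0.61 and did not pass, at an adjusted p of 0.0502. Levels of MDM2 are not comparable between experiments, since its row is the isoform from the upstream start site in experiment 1 and from the internal one, shown above, in experiment 2.

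PLK3, a stress kinase that phosphorylates p53, rose alongside it in experiment 2. It went from 22.3, 44.5 and 51.9 RPM to 38.2, 61.3 and 78.7 RPM, a log2 change of 0.52 ± 0.09 (adjusted p 0.0373, limma). In experiment 1 it read 41.5 and 42.0 RPM with DMSO and 33.5 and 37.0 RPM with Nutlin-3a, unscaled. The scaled log2 change there was -0.11 and did not pass (adjusted p 0.730, limma). The experiments differed by 0.63 (adjusted p 0.0358, limma). TP53INP1, a cofactor of p53 in stress, had a log2 change of 0.45 ± 0.13 in experiment 2 and 0.11 ± 0.16 in experiment 1, and MDM4, the partner of MDM2 in restraining p53, 0.29 and 0.01; neither passed. Of 11 feedback genes tested, 2 passed in experiment 2, 0 in experiment 1, and 6 lay above 0 over both.

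Of 11 arrest genes, none passed in either experiment. CDKN1A encodes p21, the inhibitor of cyclin-dependent kinases through which p53 halts the cycle. It stood at 36.6 and 38.2 RPM with DMSO and 35.3 and 38.8 RPM with Nutlin-3a in experiment 1. In experiment 2 it went from 73.5, 59.1 and 56.1 RPM to 85.4, 108 and 56.9 RPM. Pair 2 gained most and pair 3 hardly any. The log2 change was 0.12 ± 0.16 in experiment 1 and 0.28 ± 0.13 (adjusted p 0.244) in experiment 2. BTG2, an antiproliferative cofactor of deadenylation, had 0.04 ± 0.20 and 0.47 ± 0.16, again with its largest pair change, 1.04, in the second replicate of experiment 2.

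The apoptosis genes were likewise without a call. Of 19 tested, 12 were above 0 over both experiments and the median was 0.06. PHLDA3, an inhibitor of AKT signalling, went from 40.6, 28.4 and 40.0 RPM to 68.4, 47.4 and 42.9 RPM in experiment 2. Its first and second pairs gained while pair 3 stayed level, and the log2 change was 0.44 ± 0.13 (adjusted p 0.117). BBC3, which encodes the BH3-only protein PUMA, had 0.24 ± 0.11 in experiment 2 and 0.11 ± 0.13 in experiment 1. FAS, a death receptor, had 0.22 ± 0.12 in experiment 2 and -0.07 ± 0.14 in experiment 1, and BAX, the mitochondrial pore former, 0.12 ± 0.09 and 0.07.

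In DNA repair, DDB2 rose in experiment 2. It went from 40.9, 63.0 and 46.6 RPM to 71.8, 86.5 and 65.6 RPM, so all 3 Nutlin-3a libraries lay above all 3 DMSO libraries in unscaled RPM; after scaling, Nutlin-3a replicate 3 lay below DMSO replicate 2. The log2 change was 0.50 ± 0.09 (adjusted p 0.0438, limma). In experiment 1 DDB2 read 45.2 and 43.1 RPM with DMSO and 39.0 and 36.0 RPM with Nutlin-3a, unscaled. The scaled log2 change there was -0.10 and did not pass (adjusted p 0.765, limma). The difference between experiments was 0.60 (adjusted p 0.045, limma). POLH, a translesion polymerase, had 0.38 ± 0.08 in experiment 2 (adjusted p 0.0754) and -0.09 ± 0.10 in experiment 1. RRM2B, the p53-inducible ribonucleotide reductase subunit, had -0.15 ± 0.10 in experiment 2 and 0.07 ± 0.12 in experiment 1. Of 9 repair genes, 1 passed in experiment 2.

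Metabolic and autophagy targets gave no call, though 20 of 26 were above 0 in experiment 2 and 13 of 26 in experiment 1. SESN1 and SESN2, sestrins that restrain mTORC1, had log2 changes of 0.55 ± 0.14 and 0.45 ± 0.11 in experiment 2 (adjusted p 0.0897 for each) and -0.13 and -0.09 in experiment 1. TIGAR, a regulator of glycolysis, had 0.40 ± 0.11 in experiment 2 and 0.04 in experiment 1. Of 60 further targets, SUSD6 alone passed: it went from 3.37, 5.01 and 2.36 RPM to 6.20, 8.23 and 4.37 RPM in experiment 2. The log2 change was 0.66 ± 0.10 (adjusted p 0.0321), and in experiment 1 the level fell in unscaled RPM from 24.6 and 25.3 to 22.5 and 19.4, a change of -0.12 ± 0.12 that did not pass. GDF15, a secreted stress cytokine, had 0.32 ± 0.17 in experiment 1 and 0.46 ± 0.14 in experiment 2, and passed in neither.

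The calls of experiment 2 were not held by every setting. The 4 p53 targets kept their direction in all settings that could test them, with log2 changes of 0.48 to 0.75 for MDM2, 0.37 to 0.58 for DDB2, 0.43 to 0.61 for PLK3 and 0.34 to 0.74 for SUSD6. None of the 4 was called when all 20 libraries gave the spread, without the replicate block, without the filter on low levels, with a pseudocount of 5, after the span trend was removed, or without the first replicate of experiment 2 of either condition. Without the second replicate of experiment 2, 11 p53 targets were among the 811 to 826 calls, and without its replicate 3, 9 were among 39 to 40.

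**Figure D2:**
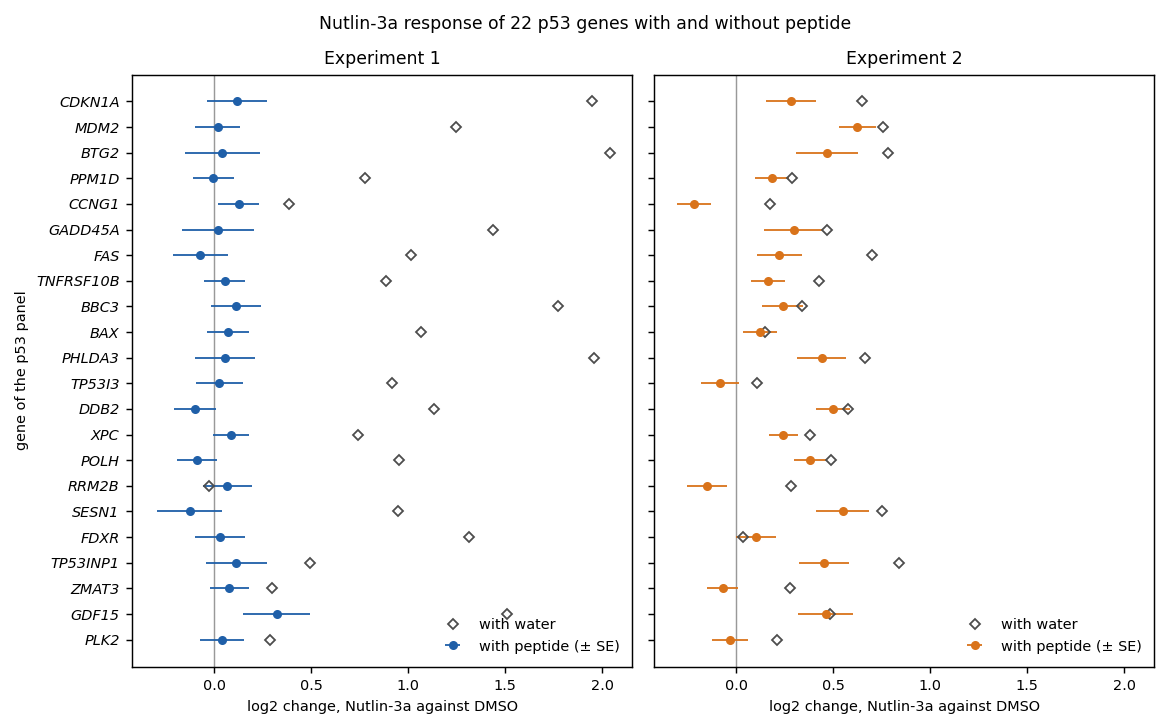
Log2 change with Nutlin-3a against DMSO of the 22 panel genes in experiment 1 (left) and experiment 2 (right), with filled circles for cells with peptide (bars, SE) and open diamonds for cells with water. In each experiment 21 of 22 circles lie to the left of their diamond, and the gap is wide in experiment 1 and narrow in experiment 2.

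Set beside the response with water, the response with peptide was smaller in most p53 targets. Over both experiments 124 of 136 lay below their response with water (91.2%, beside 46.2% of all genes), with a median difference of -0.26. No gene passed the test of that difference over both experiments (limma, 0 called, 288 at an unadjusted p under 0.05; 4 by limma-voom, none a p53 target). Within experiment 1, 14 genes had a response with peptide below that with water (0.0877% of those tested). Of these, 13 were p53 targets, beside 136 of all 15958 genes tested. The p53 list was drawn up with earlier results of these data known, so such counts are a description only. Within experiment 2 none passed, with 354 genes at an unadjusted p under 0.05. The panel medians in experiment 1 were 0.05 with peptide and 0.98 with water, and in experiment 2 were 0.24 and 0.45.

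CDKN1A and PHLDA3 show the gap in experiment 1. CDKN1A averaged 34.1 ± 0.277 RPM with DMSO and 116 ± 10.7 RPM with Nutlin-3a in cells with water (SD, n = 2), while the 4 libraries with peptide lay between 35.3 and 38.8 RPM. The response with peptide was lower by a log2 difference of -1.83 ± 0.28 (adjusted p 0.0148, limma). PHLDA3 averaged 12.4 ± 0.957 and 43.4 ± 7.64 RPM with water and lay between 13.3 and 16.6 RPM with peptide, a difference of -1.90 ± 0.28 (adjusted p 0.011). The others were BTG2 (-2.0), GRIN2C (-2.39), SESN2 (-1.71), BBC3 (-1.66), SYTL1 (-1.33), FDXR (-1.29), SULF2 (-1.27), DDB2 (-1.23), CYFIP2 (-1.06), NADSYN1 (-0.98) and DGKA (-0.92), all as log2 differences. GRIN2C lies downstream of FDXR on the same strand, and whether its reads run on from that gene was not tested. MDM2 differed by -1.23 and did not pass (adjusted p 0.19). Without the water library that stood apart the difference was -1.60 for CDKN1A and -1.65 for PHLDA3, and 22 genes passed and 18 of 19 lower ones were p53 targets. Without the other Nutlin-3a replicate with water, 7166 genes passed, without a DMSO library with water 9 (replicate 1) or 3 (replicate 2), without a DMSO library with peptide 2 or 15, and without a Nutlin-3a library with peptide 11 or 4.

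In experiment 2 the same genes sat closer together. MDM2 differed by -0.13 between peptide and water, DDB2 by -0.08, PLK3 by 0.00 and CDKN1A by -0.37, and none passed. Across the 136 p53 targets the responses with peptide and with water correlated at 0.676 in experiment 2 and at -0.0289 in experiment 1, as a description over genes; across all genes the values were 0.365 and 0.127. The 2 responses of an experiment share no library.

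Most of what rose in experiment 1 with peptide was structural RNA, the ribosomal row RNA18S5 included. Of 82 genes called, 79 rose (0.495% of those tested) and 3 fell (0.0188%), and 60 of the 82 were rows of structural RNAs, 59 of them higher. With unscaled RPM 110 genes were called, 62 higher and 48 lower, and 65 of them were among the 82. The 82 calls are 70 distinct rows of reads, because multicopy genes share theirs. Of the 22 others, 8 overlap a structural row, and none of the 82 was a p53 target. The count was 41 without a second replicate of experiment 1, and 248 to 250 and 179 without replicate 2 or 3 of experiment 2, which share the estimate of spread. Of 316 structural rows tested, 275 were above 0 in experiment 1 with a median of 0.31, and 87 were above 0 in experiment 2 with a median of -0.11. The share of reads in structural rows was 16.97 to 19.06% with DMSO and 19.58 to 23.78% with Nutlin-3a in experiment 1, and its part in these calls was not tested.

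Spliceosomal RNAs were among them. Of 38 rows of U1, U2, U4, U5, U6 and related RNAs, which hold 28 distinct sets of reads, 19 were called higher, and the median over the 38 was 0.71. The 19 calls hold 13 distinct sets, since copies of U1 share identical reads. RNU4-2, a U4 RNA that pairs with U6 in the spliceosome, went from 21.4 and 39.3 RPM to 87.1 and 115 RPM in experiment 1, so that both Nutlin-3a libraries exceeded both DMSO libraries. Its log2 change was 1.91 ± 0.15; in experiment 2 it was at 0.172 RPM or less in each of the 6 libraries. Box H/ACA RNAs, which guide pseudouridylation, had 22 of 93 rows called higher with a median of 0.43. Box C/D RNAs, which guide ribose methylation, had 13 of 150 called higher and 1 lower, and the Cajal body RNAs 2 of 23 higher. SNORD24, a C/D RNA within RPL7A, went from 1.76 and 1.33 RPM to 39.4 and 38.1 RPM in experiment 1, and from 102, 82.1 and 146 RPM to 100.2, 82.7 and 100.6 RPM in experiment 2. Its reads may be shared with the host gene, which lies on the same strand.

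Long and noncoding genes made up much of what rose in experiment 2. Of 35 genes called, 29 rose (0.182% of those tested) and 6 fell (0.0376%), while with unscaled RPM 250 genes were called, 242 higher and 8 lower, and 33 of them were among the 35. Without a first replicate of experiment 2 there were 4 calls. Rows with a noncoding RefSeq isoform were 16 of the 29 (55.2%, beside 20% of all genes tested), the median span was 78642 bp beside 20602.5 bp, and 28 of the 29 were below 0 in experiment 1, beside 8644 of all 15958 genes. NEAT1, the architectural RNA of paraspeckles and itself a p53-linked gene, went from 113, 167 and 74.5 RPM to 201, 277 and 111 RPM in experiment 2. The log2 change was 0.62 ± 0.08 (adjusted p 0.0321, limma). In experiment 1 it went from 190 and 187 RPM to 122 and 131 RPM, a change of -0.44 ± 0.10 (adjusted p 0.0816), and the difference between experiments was 1.06. The row covers the short isoform of NEAT1.

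Other genes of this kind were FTX, a long noncoding RNA gene of the X-inactivation centre, and LPP, which encodes a protein of focal adhesions and spans 720607 bp. FTX had a log2 change of 0.42 ± 0.07 and LPP 0.53 ± 0.09 in experiment 2. LPP read 46.4, 20.1 and 46.3 RPM with DMSO and 79.8, 25.2 and 78.6 RPM with Nutlin-3a there, and 639 and 566 RPM against 552 and 449 RPM in experiment 1. The scaled log2 change of LPP in experiment 1 was -0.14 and did not pass (adjusted p 0.663, limma). No gene was called in both experiments. The 6 that fell included KIF20A, a mitotic kinesin, at -0.45 ± 0.08, and GRPEL1, a mitochondrial import factor, at -0.40 ± 0.08, both with an adjusted p just under the threshold. HCG9, HLA-J and MT1L had log2 changes of -3.59, -3.57 and -2.52, but their levels were uneven between replicates: HCG9 read 24.2, 8.03 and 81.3 RPM with DMSO and 0.302, 0.0773 and 21.8 RPM with Nutlin-3a. HLA-J read nearly the same as HCG9, at 24.4, 8.03 and 81.3 RPM with DMSO and 0.345, 0.0773 and 21.8 RPM with Nutlin-3a. Whether the rows of HCG9 and HLA-J share reads was not tested, so they cannot be taken as separate falls. HLA-J and MT1L have near-identical relatives, so their reads are uncertain.

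**Figure D3:**
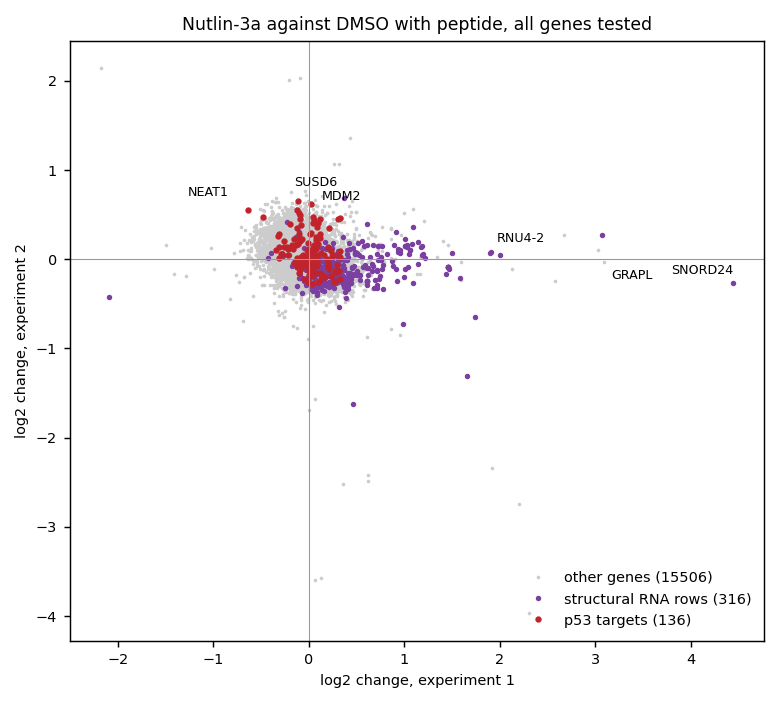
Log2 change with Nutlin-3a against DMSO in peptide-treated cells, experiment 1 on the horizontal and experiment 2 on the vertical axis, for all 15958 genes tested, with 136 p53 targets in red and 316 structural RNA rows in purple. Structural rows spread to the right along experiment 1, and MDM2, SUSD6 and NEAT1 lie high on experiment 2.

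Change with peptide moved with the span of the gene, in opposite directions in the experiments. With structural rows left out, the median log2 change in experiment 1 was 0.09 for 468 genes of up to 300 bp, 0.14 for 849 genes of 300 to 2000 bp and -0.10 for 875 genes of over 200000 bp. In experiment 2 the same classes had -0.05, -0.09 and 0.11. For the longest genes both pairs of experiment 1 lay below 0, at -0.05 and -0.16, and the 3 pairs of experiment 2 above, at 0.09, 0.05 and 0.17. Of the p53 targets called in experiment 2, SUSD6 spans 99387 bp and PLK3 5315 bp. The part of span in the calls was not tested beyond the fit without its trend, which left 1 call in experiment 2 and 49 in experiment 1.

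**Figure D4:**
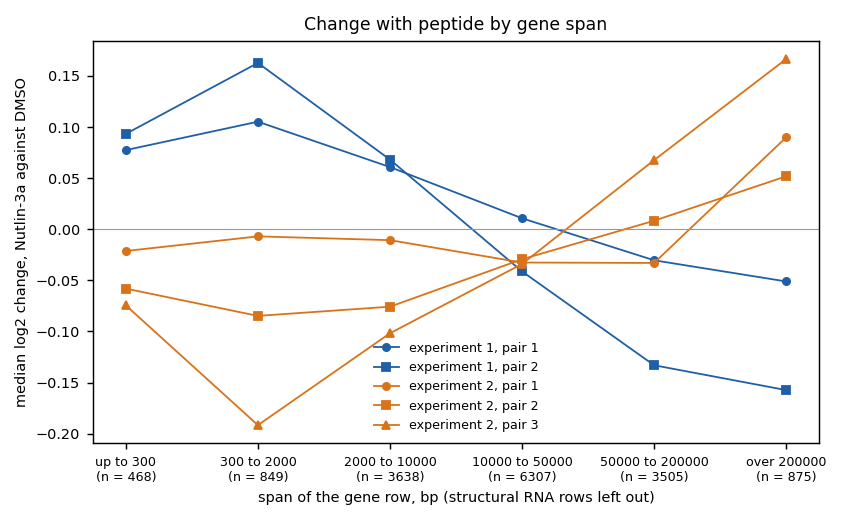
Median log2 change with Nutlin-3a against DMSO in peptide-treated cells (vertical axis) in 6 classes of gene span in bp (horizontal axis, number of genes below each), 1 line per pair, with structural RNA rows left out. The 2 lines of experiment 1 end below 0 for the longest genes and the 3 lines of experiment 2 end above 0.

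Cell cycle genes were mostly below 0 in experiment 2. Of 45 tested, 7 were lower with Nutlin-3a in all 5 pairs (15.6%, beside the background of 3.43%). In experiment 2, 44 of 45 were below 0 with a median of -0.23, while in experiment 1, 35 were above 0 with a median of 0.09. In unscaled RPM 9 of 45 were above 0 in experiment 1 and 3 of 45 in experiment 2. The unscaled median of experiment 1 was -0.04 and that of experiment 2 -0.14; relative to the median of all genes they were 0.10 and -0.20, close to the 0.11 and -0.21 of scaled values. MKI67, the proliferation antigen Ki-67, had a log2 change of -0.20 ± 0.09 in experiment 1 and -0.22 ± 0.08 in experiment 2, lower in all 5 pairs. TOP2A, a topoisomerase of dividing cells, had -0.13 and -0.22, and PLK4, the kinase of centriole duplication, -0.18 and -0.22. None of these passed, and KIF20A was the 1 member called within an experiment. The difference between experiments passed for 4 of the 45, beside 2.08% of all genes. In cells with water the medians of the list were -0.09 and -0.17.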

How the data were processed

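The authors deposited a table for each experiment, with 26485 gene rows that each stand for 1 RefSeq isoform; the isoform differed between tables for 1491 symbols. Per the submitters' processing notes, the tools were HISAT2, bedtools and limma, on hg38; versions, settings and strand handling in the counting are not given in the sources used here. The deposited unit is neither counts nor RPM: the authors' value is another quantity, reads per 1e+06 reads of the rows, divided by the row's end less 0.001 of its start, as found from the values and the deposited coordinates. Multiplied back, it gave RPM and whole reads in 100% of values (tolerance 0.001). The design had assumed RPM, and its test was kept.

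The tables were normalised separately by the authors, so every test rests on differences within an experiment. Libraries were scaled by a trimmed mean of M values (30% of log ratios and 5% of abundances trimmed), 0.5 RPM was added before the log2, and the 15958 genes that averaged 0.5 RPM or more across 20 libraries were tested by limma 3.58.1 with a trend in R 4.3.3, two-sided, with a block for each of 5 pairs and Benjamini-Hochberg adjustment. A call is an adjusted p under 0.05. A log2 change is on the scale of log2(RPM + 0.5) and understates low genes. The effect per experiment and the difference between experiments came from the 10 peptide libraries, and the difference from water from all 20, per experiment with 8 group means. In each fit both experiments share 1 estimate of spread per gene. An SE or p-value for 1 experiment thus also draws on the libraries of the other. The procedure was tested on simulated data with 50 changed genes per fold, whose spread between libraries was set and not estimated from these data. Of 1.25-fold changes it recovered 6% in experiment 1, 18% in experiment 2 and 36% over both. Of 1.5-fold changes it recovered 56%, 80% and 100%, and of 2-fold changes 100% in each. Small changes in 1 experiment could thus be missed. Python 3.11.15 and matplotlib 3.10.9 drew the plots.

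No label says that replicate numbers pair libraries or that replicates came from separate cultures, so p-values measure the spread between these libraries, which may be technical. The numbers were taken as pairs by the rule of the comparison; deviations from condition means of same-numbered libraries correlated at 0.286 in experiment 1, where 2 replicates mirror each other, and at 0.911 to 0.915 in experiment 2, against -0.495 to -0.425 for other numbers.

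Members and gene lists were chosen with earlier results of these data known. Named genes were the 10 largest and 10 smallest changes among calls, a panel of 22 p53 genes, up to 4 genes of each list by p-value, and the 10 highest and 10 lowest by p-value with at least 5 RPM in each experiment and 1 direction in 5 pairs. LPP, FTX, NINJ1, VWCE and the p53 targets named only for their difference from water were named after their values were seen.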

Additional observations from a re-analysis of the deposited data

Results flagged for a closer look

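The change with peptide differed between experiments, by the test of the difference itself, in 332 genes. Of these, 71 were structural rows, beside 316 of the 15958 genes tested. Among p53 targets, experiment 2 exceeded experiment 1 by a log2 difference of 1.18 in GRIN2C, an NMDA receptor subunit, 0.96 in VWCE, 0.77 in SUSD6, 0.63 in PLK3, 0.60 in DDB2 and 0.59 in SYTL1. NEAT1 differed by 1.06 in the same direction. RNU4-2 and SNORD24 differed the other way, by -1.82 and -4.71. RNU4-2 was at 0.172 RPM or less in experiment 2, below the 0.5 RPM added before the log2, so its change there was bound to be small. GRIN2C lies downstream of FDXR on the same strand, and whether its reads run on from that gene was not tested.

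In experiment 1 the response with peptide lay below that with water, by the test of that difference, in 13 p53 targets. The log2 differences were -2.39 in GRIN2C, -2.0 in BTG2, -1.90 in PHLDA3, -1.83 in CDKN1A, -1.71 in SESN2, -1.66 in BBC3, -1.33 in SYTL1, -1.29 in FDXR, -1.27 in SULF2, -1.23 in DDB2, -1.06 in CYFIP2, -0.98 in NADSYN1 and -0.92 in DGKA. RNU4-2 lay above by 2.13 and SNORD24 by 4.38. No one pair stood apart from the other 4 in any of the 22 panel genes by Dixon's test. With 5 values per gene, drawn from both experiments, that test can find only a pair far from all others. It does not show that the pairs contributed equally.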

How the results depend on the processing

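Leaving out 1 library of a pair also empties that pair, which leaves experiment 1 with 1 pair. A change of sign within the standard error of an uncalled value was counted as no change. The cause of each shift below was not tested, except that fewer libraries or genes enter by construction.

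Over both experiments the 0 calls with peptide became 11 with limma-voom, 1333 for experiment 1 alone (1 residual degree of freedom) and 24 for experiment 2 alone, and 0 to 2 with a library left out. The 82 calls of experiment 1 became 26 with all 20 libraries in the fit, 12 without a filter, 18 with at least 5 RPM, 52 with a pseudocount of 0.1, 614 with array weights, 19 without structural rows and 49 with the span correction. The 35 of experiment 2 became 0 with 20 libraries, 250 without scaling, 0 without a filter, 62 with at least 5 RPM, 15 and 3 with pseudocounts of 0.1 and 5, 5 with array weights and 1 with the span correction. The 332 that differed between experiments became 6, 1998, 0 and 516 under the first 4 of these, 860 with limma-voom, 1369 with array weights, 221 without structural rows and 28 with the span correction.

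Leaving out a library gave 41 to 250, 4 to 826 and 35 to 1993 calls for experiment 1, experiment 2 and their difference. The difference from water gave 4 calls with limma-voom over both experiments and 0 to 0 with a library left out; within experiment 1 its 18 became 6 without scaling, 8 without a filter, 49 with a pseudocount of 5, 35 with limma-voom, 1 with array weights, 30 with the span correction and 2 to 7166 with a library left out, and within experiment 2 it gave 0 to 2. With a library left out, the p53 median ranged from -0.01 to 0.04 over both experiments, from -0.013 to 0.017 in experiment 1 and from 0.01 to 0.08 in experiment 2. Without scaling it was -0.10 in experiment 1 and 0.13 in experiment 2, and in experiment 1 it was 0.031 with median-of-ratios factors and 0.036 without structural rows. With a library left out, its difference from water ranged from -0.35 to -0.22 (-0.51 in experiment 1 alone). In experiment 1 alone the log2 changes of DDB2, POLH and SESN1 turned to -0.098, -0.087 and -0.13.

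Without the replicate block, with a term for experiment in place of the pairing, calls fell to 1 in experiment 1, 0 in experiment 2, 1 for their difference and 1 for the difference from water in experiment 1. The span correction, the fit of the difference from water per experiment and all settings of the results per experiment were added after the data were seen.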

Other observations

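Of 34 immediate early genes, 31 were above 0 in experiment 1 with a median log2 change of 0.18, and 7 were above 0 in experiment 2 with a median of -0.12, beside 45.8% and 44.3% of all genes. In unscaled RPM 22 and 16 of the 34 were above 0, with medians of 0.05 and -0.04. JUNB, a subunit of the AP-1 factor, had 0.16 ± 0.12 and -0.39 ± 0.08, and DUSP6, the phosphatase that shuts off ERK, 0.11 and -0.37. The difference between experiments passed for 4 of the 34, beside 2.08% of all genes, with JUNB among them (adjusted p 0.0387, limma). Of 15 targets of NRF2, the regulator of the oxidative stress response, 15 were above 0 in experiment 1 (median 0.18) and 7 in experiment 2 (median -0.06). HMOX1, the haem-degrading enzyme of that response, had 0.69 ± 0.17 and 0.26 ± 0.14 and passed in neither. The difference between experiments passed for 1 of the 15. In unscaled RPM the medians of the NRF2 list were 0.04 and 0.03.

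Of 32 Mediator subunit genes tested, 20 were above 0 in experiment 1 and 7 in experiment 2, with medians of 0.05 and -0.10, and none passed; in unscaled RPM the median of experiment 1 was -0.09. MED26, a subunit that docks elongation factors, had -0.17 in each experiment.

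Further lists gave no call with peptide within either experiment. The difference between experiments passed for 1 of 9 metallothionein and zinc genes. In experiments 1 and 2 the medians were 0.11 and -0.12 for 14 heat shock genes, -0.01 and -0.11 for 14 NF-kB response genes, 0.09 and -0.01 for 23 genes of the unfolded protein and amino acid responses, 0.12 and -0.01 for 22 genes of cholesterol synthesis and 0.33 and -0.30 for 9 metallothionein and zinc genes, several of which have near-identical copies. Signs turned in unscaled RPM, where the medians were -0.03 and -0.03 for heat shock, -0.02 and 0.06 for cholesterol synthesis and -0.02 and 0.07 for the unfolded protein and amino acid list; those of the NF-kB list were -0.14 and -0.03 and those of the metallothionein list 0.19 and -0.22.

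Genes averaging at least 5 RPM in each experiment with 1 direction in all 5 pairs were led by MIR663A (0.58 ± 0.13), EID3 (0.75 ± 0.25) and PDLIM5 (0.29 ± 0.09) among the higher and by ANKRD50 (-0.31 ± 0.08), ZHX1 (-0.30 ± 0.08) and CKAP2L (-0.28 ± 0.08) among the lower. None passed over all genes. MIR663A was uneven, at 3725 to 4711 RPM in experiment 1 and 2.14 to 83.3 RPM in experiment 2. ANKRD50, which takes part in endosome recycling, read 17.8 RPM or more with DMSO and 15.6 and 13.4 RPM with Nutlin-3a in experiment 1, and 48.9, 48.8 and 52.8 RPM against 33.1, 45.2 and 45.2 RPM in experiment 2. CKAP2L is a protein of the mitotic spindle.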
